A study of Mus musculus with 6 samples.

Results

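The genes described here encode the liver enzymes that break down amino acids and turn their nitrogen into urea. They were taken from a list of 41 gene symbols, and a probe set of the array counted as a member when its platform annotation gave exactly 1 gene symbol and that symbol was on the list. This found 59 probe sets of 38 genes, out of 45037 probe sets on the array without controls. Gls2 (glutaminase of the liver type), Sds (serine dehydratase) and Sdsl (a serine dehydratase-like enzyme) had no such probe set and are not analysed here.

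The study asked how the liver transcriptome of mice responds to social isolation used as a stress. RNA came from the liver of male BALB/c mice aged 10 weeks, with 3 arrays from isolated mice and 3 from control mice. All animals came at 4 weeks of age, lived 5 to a cage, and had 10 days to settle. Isolated mice then spent 30 days with 1 mouse per cage inside a foam box and with less bedding, so that the lack of company cannot be told apart from the changed cage, and light, water and diet did not differ by group in the labels. Samples are numbered within a group, and no label states that every array is another mouse, so the p-values measure only the spread between these samples, which may be technical.

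The liver is the main site of amino acid breakdown. Aminotransferases move the amino group onto glutamate, glutamate dehydrogenase frees it as ammonia, and the urea cycle, spread over mitochondria and cytosol of the hepatocyte, binds it into urea. The carbon skeletons of histidine, tyrosine, tryptophan and methionine are taken apart by dedicated enzymes, many of which are nearly confined to the liver and are known to be induced by glucocorticoids, glucagon or protein feeding.

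None of the 38 genes passed the test in either direction. Values are MAS5 signals, the linear intensity that the Affymetrix software gives for each probe set, and changes are isolated minus control on the scale of log2(signal + 2). Each gene is represented by its brightest tested probe set. With limma and p-values adjusted by Benjamini-Hochberg over the 22519 probe sets tested, 0 members were higher and 0 were lower at an adjusted p under 0.05, the lowest adjusted p being 0.0583 for Nags. Over all 10986 tested genes 1.75% passed, 0.901% as higher and 0.847% as lower, and 0 of 38 is near that background. Without adjustment, 6 of the 38 had a limma p under 0.05, or 15.8%, against 12.3% of all genes.

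**Figure D1:**
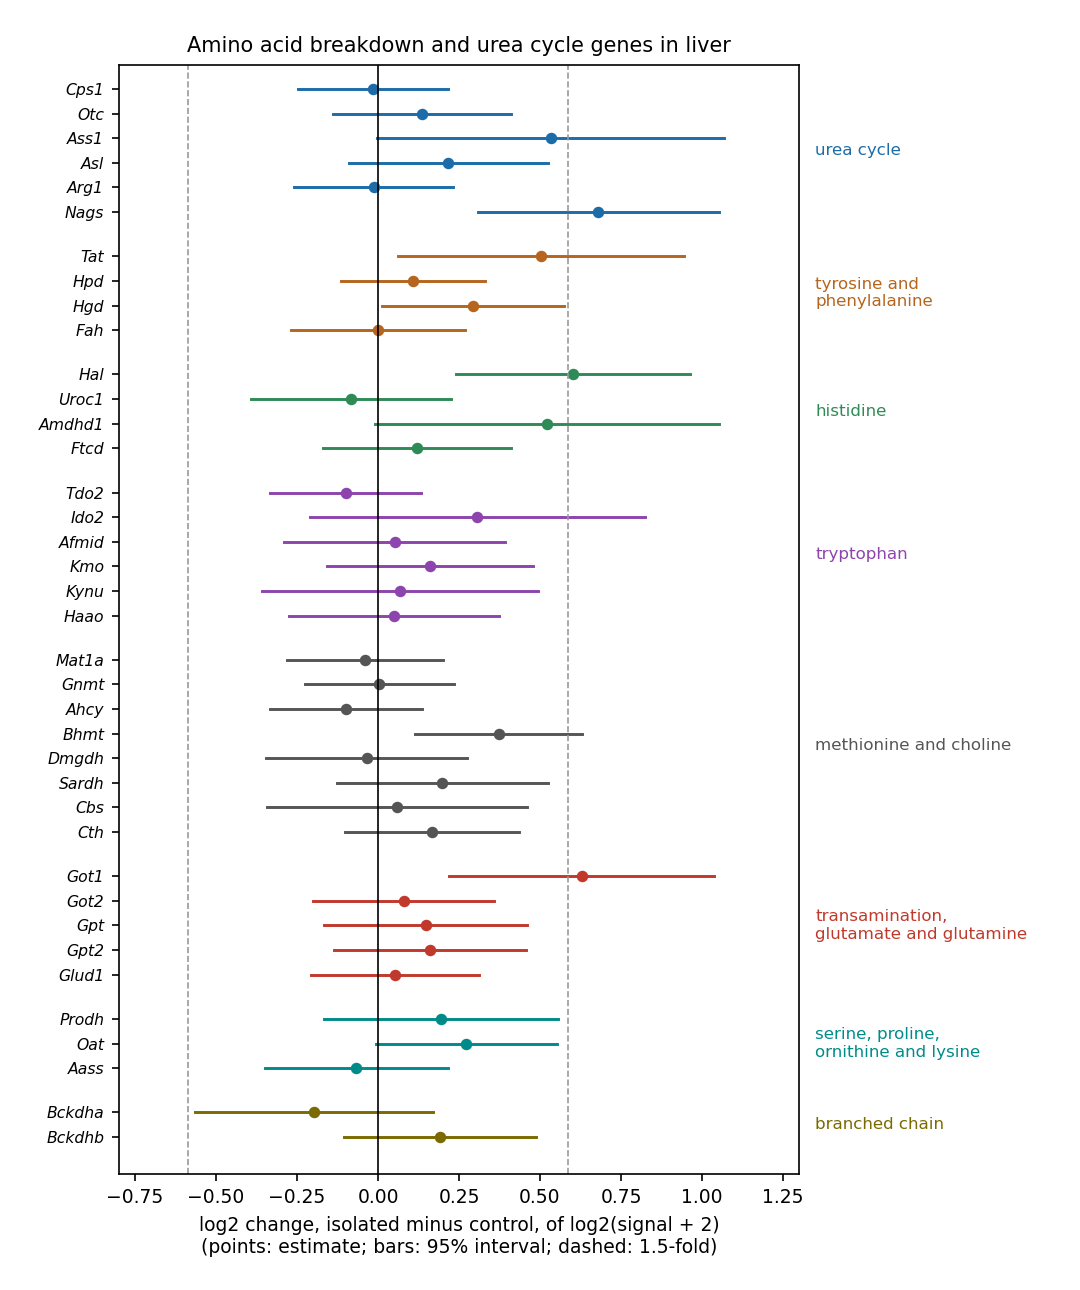
Log2 change of signal (isolated minus control, horizontal axis) for the 38 enzyme genes, grouped by pathway down the page. Points are limma estimates, bars their 95% intervals and dashed lines a 1.5-fold difference. Nags has the largest estimate at 0.68, and 29 of the 38 points lie above 0.

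The estimates leaned upward by a small amount. Of the 38 members, 29 had a log2 change above 0 and 9 below, or 76.3% above 0, against 58.4% of all tested genes. The median log2 change was 0.13 over the members and 0.05 over all tested genes. All isolated arrays lay above all control arrays for 3 members, Nags, Hal and Oat, which is 7.89% of them against 10.8% of all genes, and they lay below for 0 members against 5.17% of all genes. Neither share among the members exceeded its background.

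The intervals were narrow for most members. For 30 of the 38 genes, or 78.9%, the 95% interval of the ratio of isolated to control signal lay within 1.5-fold in both directions, which held for 40.6% of all tested genes. The median SE of the log2 change was 0.14 for the members and 0.21 for all tested genes. The fit gives brighter probe sets smaller errors through its intensity trend, and the members were not matched on brightness with the other genes. In RNA of whole liver, fewer cells of a type and less RNA per cell cannot be told apart.

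The urea cycle was measured through 6 genes, of which 4 had a log2 change above 0 and 2 below, with a median of 0.18. Nags, which makes N-acetylglutamate, the obligatory activator of carbamoyl phosphate synthetase, had the lowest p of all members. Its signal was 529.8, 376 and 438 on the isolated arrays, against 261, 250.1 and 322 on the control arrays. Every isolated value was above every control value, and isolated replicate 1 was the highest. The means were 448 ± 77.4 in isolated livers and 278 ± 38.6 in control livers (SD, n = 3 each). The log2 change was 0.68 (SE 0.18), a 1.60-fold ratio with a 95% interval of 1.24 to 2.07, and it did not pass the limma test at an adjusted p of 0.0583.

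The first and the last enzyme of the cycle itself had log2 changes of -0.02 and -0.01. Cps1, which encodes carbamoyl phosphate synthetase and feeds ammonia into the cycle, had signals of 8895, 7522 and 8752 in isolated livers and 8559, 8076 and 8744 in control livers. The groups overlapped fully, and the ratio was 0.990 with a 95% interval of 0.843 to 1.16. Arg1, the arginase that releases urea, had signals of 6891, 5760.2 and 7202 in isolated livers and 6938, 6204 and 6834 in control livers. These groups overlapped as well, with a ratio of 0.991 and an interval of 0.835 to 1.18.

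Otc, the transcarbamylase that forms citrulline, had a log2 change of 0.14 (limma adjusted p = 0.801), and Asl, which splits argininosuccinate into arginine and fumarate, one of 0.22 (limma adjusted p = 0.663). Ass1, which joins citrulline and aspartate, was read from a probe set with signals of 177, 188 and 306 in isolated livers and 122, 112 and 242 in control livers. In each group replicate 3 was well above the other two, and the log2 change of 0.53 (SE 0.26) did not pass the limma test at an adjusted p of 0.441. The Ass1 probe set was far dimmer than those of Cps1, Otc, Asl and Arg1, and how well it reads the gene was not tested. Its estimate is part of the median of the urea cycle genes. Another probe set whose annotation lists Ass1 together with another symbol was not used.

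Histidine breakdown was the pathway with the highest median log2 change, 0.32 over 4 genes, of which 3 were above 0. Hal, the histidine ammonia-lyase that opens the pathway by forming urocanate, had signals of 599, 444 and 623 in isolated livers and 396, 322 and 369.7 in control livers. The isolated arrays were all above the control arrays, with the lowest isolated and the lowest control value both on replicate 2. The means were 555 ± 97.2 and 363 ± 37.6 in isolated and control livers (SD, n = 3 each), which gave a log2 change of 0.60 (SE 0.17) or 1.52-fold with an interval of 1.18 to 1.95. It did not pass, at a limma adjusted p of 0.0929.

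The next steps of the pathway gave estimates of both signs. Uroc1, the urocanate hydratase of the second step, had signals of 923, 804 and 1026 in isolated livers and 1003, 1009 and 895 in control livers. Its groups overlapped, with a log2 change of -0.08. Amdhd1, the imidazolonepropionase of the third step, had signals of 511, 375 and 891 in isolated livers and 471, 264 and 463 in control livers. Isolated replicate 3 was far above the rest, and the log2 change of 0.52 (SE 0.25) had a limma adjusted p of 0.449. A dimmer probe set of Amdhd1 gave 0.56, with all isolated arrays above all control arrays and a limma adjusted p of 0.341. Ftcd, which hands the formimino group to folate, had a log2 change of 0.12.

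The sequences before the starts of Nags and Hal are shown because these were the only members whose brightest probe set had a log2 change of at least 0.5 and groups that did not overlap. Each is 250 bases that end at the gene's start, from RefSeq's GRCm38.p6 table, in lower case with matches to either of 2 motifs in capitals. The motifs were TTGCNNAA, a core bound by C/EBP factors, and ACANNNTGT, a core bound by the glucocorticoid receptor, both searched on both strands. The Nags window lies at chr11:102145263-102145512 and the Hal window at chr10:93488518-93488767, both on the plus strand.
Nags: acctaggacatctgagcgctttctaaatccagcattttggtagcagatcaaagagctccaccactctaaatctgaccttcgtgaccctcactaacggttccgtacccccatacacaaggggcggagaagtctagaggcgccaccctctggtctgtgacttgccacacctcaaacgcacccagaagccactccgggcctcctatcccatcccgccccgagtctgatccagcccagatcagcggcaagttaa
Hal: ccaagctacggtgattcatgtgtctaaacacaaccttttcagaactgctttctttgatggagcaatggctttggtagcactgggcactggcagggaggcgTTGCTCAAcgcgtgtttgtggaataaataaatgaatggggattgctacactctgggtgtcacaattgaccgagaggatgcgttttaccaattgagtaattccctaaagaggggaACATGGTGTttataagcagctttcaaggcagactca

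The Nags window held neither motif. The Hal window held TTGCTCAA, starting 150 bases before the gene's start, and ACATGGTGT, starting 36 bases before it, and these matches do not overlap. Windows were found for 30 of the 38 members. The C/EBP core occurred in 3 of these 30 (Hgd, Hal and Aass), or 10%, and in 10.8% of 27025 genes. The glucocorticoid receptor core occurred in 4 of the 30 (Hal, Tdo2, Bhmt and Bckdhb), or 13.3%, and in 6.76% of genes. A match of letters is a description of the window and not a binding site.

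Transamination was represented by 5 genes, all with a log2 change above 0 and a median of 0.15, and none passed the limma test. Got1, the cytosolic aspartate aminotransferase, had signals of 965, 647 and 727 in isolated livers and 676, 387 and 467 in control livers. Only isolated replicate 2 lay within the control range, below control replicate 1, and replicate 1 was the highest array of each group. The log2 change was 0.63 (SE 0.20), or 1.55-fold with an interval of 1.16 to 2.05, and the limma adjusted p was 0.140.

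The other aminotransferases had smaller estimates. Got2, which encodes mitochondrial aspartate aminotransferase, had a log2 change of 0.08 and a 95% interval of the ratio of 0.871 to 1.28. Whether Got1 and Got2 differ in their change was not tested. The alanine aminotransferases Gpt and Gpt2 had log2 changes of 0.15 and 0.16, and Glud1, the glutamate dehydrogenase, one of 0.05. A dim second probe set of Gpt gave 0.75, with 107, 98.6 and 129 in isolated livers and 51.9, 38.2 and 138 in control livers. Its highest value was a control array, and it did not pass at a limma adjusted p of 0.345.

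Breakdown of tyrosine was measured through 4 genes with a median log2 change of 0.20, and all estimates were above 0. Tat, the tyrosine aminotransferase that starts the pathway and a textbook target of glucocorticoids, had signals of 3239, 5177 and 5304 in isolated livers and 3778, 2018 and 4094 in control livers. One isolated array lay below 2 of the control arrays, and the spread within each group was wide, with an SD of 1157 in isolated and 1119 in control livers. The log2 change of 0.50 (SE 0.21) did not pass at a limma adjusted p of 0.340. Isolated replicate 1 and control replicate 2 were the low arrays.

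Hgd, the dioxygenase that opens the ring of homogentisate, had signals of 3863, 3100.5 and 3859 in isolated livers and 2931, 2597 and 3299 in control livers. Isolated replicate 2 lay below control replicate 3, and the log2 change was 0.29 (limma adjusted p = 0.409). A dimmer probe set of Hgd gave 0.67 (limma adjusted p = 0.234). Hpd, the enzyme that forms homogentisate, and Fah, the hydrolase of the last step, had log2 changes of 0.11 and 0.00, with intervals of the ratio of 0.923 to 1.26 and 0.831 to 1.20.

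**Figure D2:**
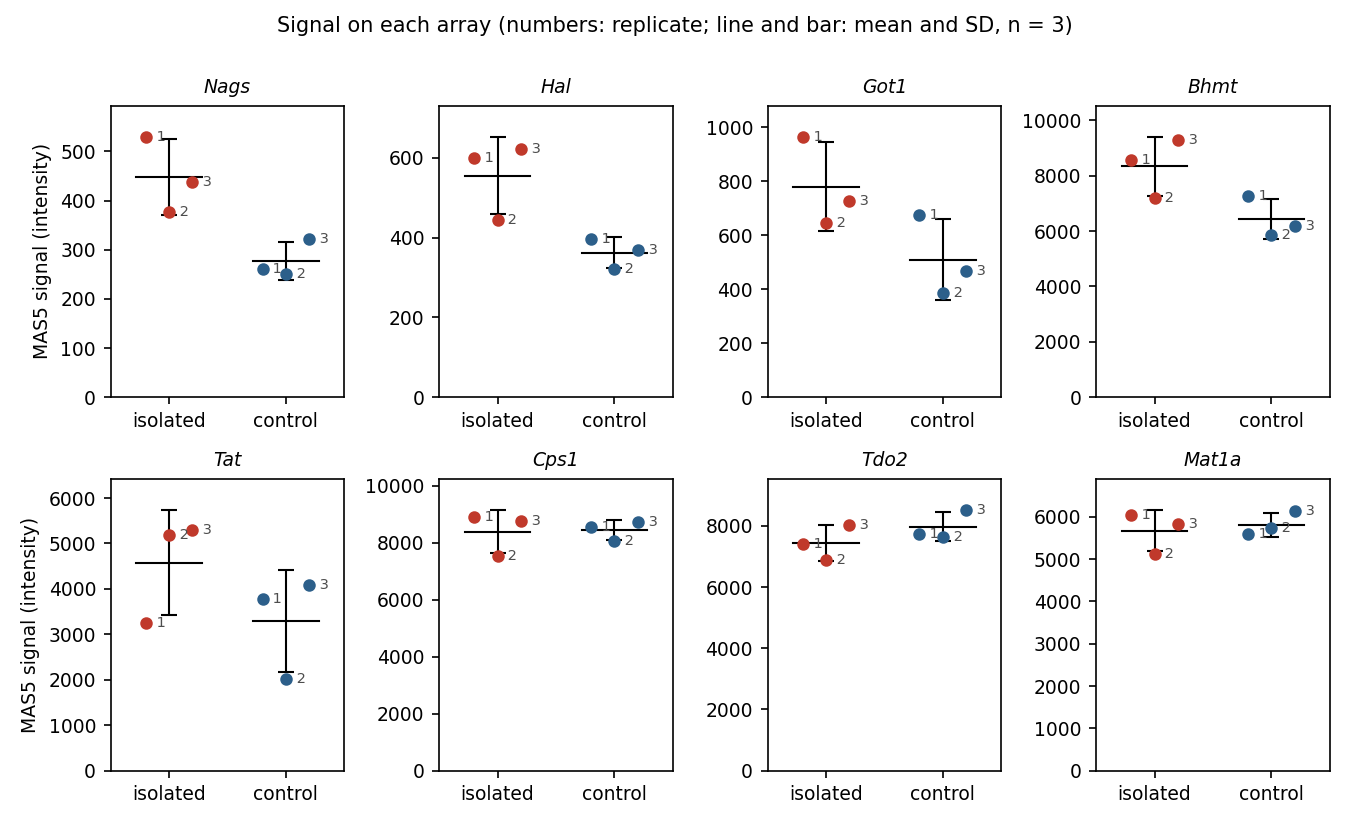
MAS5 signal (linear intensity, vertical axis) of 8 enzyme genes on each array, isolated left of control, with the replicate number beside each point and the mean and SD (n = 3) as a line and bar. For Nags and Hal all isolated points are above all control points, while for the other 6 genes the groups overlap.

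Methionine and choline breakdown held 8 genes with a median log2 change of 0.03, of which 5 were above 0. Bhmt, which remethylates homocysteine with a methyl group from the choline product betaine, stood highest. Its signals were 8568, 7184 and 9277 in isolated livers and 7253, 5875 and 6172 in control livers. The groups overlapped by 1 value, since isolated replicate 2 was just below control replicate 1. For Bhmt the log2 change was 0.37 (SE 0.12), or 1.29-fold with an interval of 1.08 to 1.55, and the limma adjusted p was 0.173.

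The methionine cycle beside Bhmt showed log2 changes within 0.1 of 0. Mat1a, the liver synthetase of S-adenosylmethionine, had signals of 6050.0, 5121 and 5829 in isolated livers and 5585, 5726 and 6127 in control livers. Gnmt, which spends S-adenosylmethionine on glycine, had 8434, 7211 and 7760.4 in isolated livers and 7756, 7573 and 7959.8 in control livers. Both groups of values overlapped, with log2 changes of -0.04 for Mat1a and 0.00 for Gnmt and intervals of the ratio of 0.823 to 1.15 and 0.856 to 1.18. Ahcy, which hydrolyses S-adenosylhomocysteine, had a log2 change of -0.10 and an interval of the ratio of 0.793 to 1.10.

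Of the enzymes that lead away from the cycle, Cbs (cystathionine synthesis) had a log2 change of 0.06, and Cth (cystathionine cleavage to cysteine) one of 0.17. Dmgdh, which demethylates dimethylglycine after Bhmt, had -0.03. Sardh, the sarcosine dehydrogenase that follows it, had 0.20 on its brighter probe set. The dimmer Sardh probe set read 707, 569 and 627 in isolated livers and 526, 379 and 482 in control livers, with the groups apart and a log2 change of 0.46. It did not pass at a limma adjusted p of 0.229. The 95% intervals of the log2 change, 0.11 to 0.81 on the dimmer and -0.13 to 0.53 on the brighter probe set, overlapped.

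Tryptophan breakdown along the kynurenine route was measured through 6 genes, 5 of them above 0, with a median log2 change of 0.06 and 0 with an unadjusted limma p under 0.05. Tdo2, the tryptophan dioxygenase of the first step and another textbook glucocorticoid target, had signals of 7415, 6879.5 and 8041 in isolated livers and 7751, 7653 and 8514 in control livers. Isolated replicates 1 and 2 lay below all control values, and isolated replicate 3 lay inside the control range. The log2 change was -0.10, with an interval of the ratio of 0.794 to 1.10, and the other tested probe sets of Tdo2 gave -0.08 and -0.03. Ido2, a dioxygenase of the same reaction, was dim and gave 0.31 with a wide interval of the ratio of 0.864 to 1.77.

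The later enzymes of the kynurenine route lay close to 0. Afmid, the formamidase, had a log2 change of 0.05, Kmo, the 3-hydroxylase, 0.16, Kynu, the kynureninase, 0.07, and Haao, the 3-hydroxyanthranilate dioxygenase, 0.05. A dim second probe set of Kynu gave 1.25, from 27.8, 35.6 and 38.1 in isolated livers and 19.4, 2.67 and 31.2 in control livers. Control replicate 2, at 2.67, was far below the other arrays, and the limma adjusted p was 0.340.

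Oat, the ornithine aminotransferase of mitochondria, had signals of 4740.0, 4198 and 4337 in isolated livers and 4156, 3011 and 3908 in control livers. The isolated arrays were all above the control arrays, but isolated replicate 2 exceeded control replicate 1 by a small margin only. Its log2 change was 0.27 (SE 0.13) with a limma adjusted p of 0.449. Prodh, the proline dehydrogenase, had a log2 change of 0.19, and Aass, which begins lysine breakdown, one of -0.07.

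The alpha and beta subunit genes of the branched-chain keto acid dehydrogenase, the committed step for leucine, isoleucine and valine, had estimates of opposite sign. Bckdha, the alpha subunit, had signals of 515, 393 and 625 in isolated livers and 589, 524 and 619.7 in control livers. Bckdhb, the beta subunit, had 1773, 1722 and 2108 in isolated livers and 1873, 1495 and 1545 in control livers. Both overlapped, with log2 changes of -0.20 (SE 0.18, limma adjusted p = 0.777) and 0.19 (SE 0.14, limma adjusted p = 0.703).

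Several probe sets of a gene did not always point the same way. Of the 59 member probe sets, 57 were bright enough to be tested and 0 passed the limma test. An unadjusted limma p under 0.05 was found for 11 of the 57, a larger share than the 11.4% of all tested probe sets. Some of the 57 read the same gene. For 13 genes more than 1 probe set was tested, and in 9 of these all probe sets had the same sign. The exceptions were Afmid, Cbs, Got2 and Uroc1, whose estimates lay close to 0 on the brightest probe set.

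The members shared a pattern between arrays that crossed the groups. In 32 of the 38 genes, replicate 2 was the lowest array of both groups at once, or 84.2%, against 27.3% of all tested genes. The pattern was not confined to the members. It held for 52 of the 76 tested further genes of amino acid metabolism, transport and regulation described below, and for 4 of 7 hepatocyte markers. Isolated replicate 2 was the lowest isolated array for 35 members, and control replicate 2 the lowest control array for 35. Over all tested genes these shares were 58.8% and 42.8%, so isolated replicate 2 was low for most genes. Relative to the mean of their group, the median log2 deviation of the members was -0.22 on isolated replicate 2 and -0.14 on control replicate 2, against -0.13 and -0.06 over all tested genes. Tested hepatocyte markers deviated by -0.09 and -0.04 on the same arrays.

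**Figure D3:**
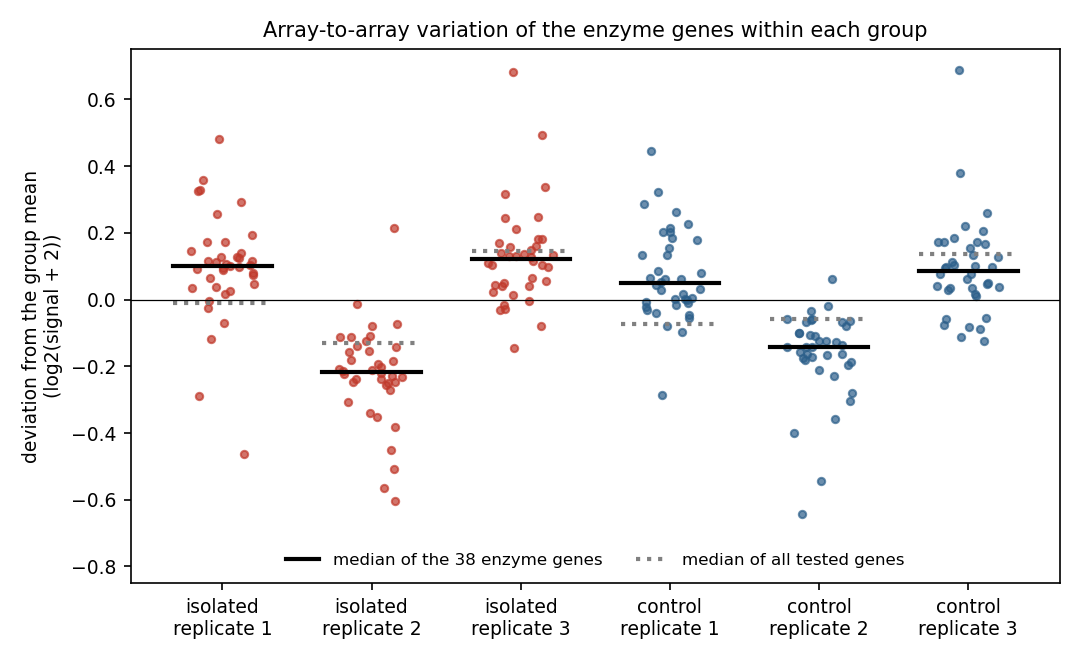
Deviation of each of the 38 enzyme genes from its group mean (vertical axis, log2(signal + 2)) on each array, isolated arrays left of control arrays. Black lines are the medians of the enzyme genes and dotted lines those of all tested genes. The medians of the enzyme genes are -0.22 on isolated replicate 2 and -0.14 on control replicate 2, and above 0 on the other arrays.

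Tat was an exception on isolated replicate 2, where it was among the high arrays, and Bhmt, Got1, Nags and Hal each had their lowest value of both groups on replicate 2. The share of the array pattern in any single result was not tested, but the counts were repeated without these arrays. Without isolated replicate 2, 3 members passed the limma test, Nags with an adjusted p of 0.0309, Hal with 0.0277 and Bhmt with 0.0292, all higher in isolated livers, and 0.719% of all genes passed as higher in that fit. Without isolated replicate 1, Tat alone passed (adjusted p = 0.0497), against 1.02% of all genes, and without control replicate 1, Got1 alone (adjusted p = 0.0328), against 0.683%. Without each of the other arrays 0 passed. Each of these passes came with the loss of that gene's lowest isolated array or, for Got1, its highest control array. Such an omission raises the estimate by construction. Fewer arrays were in each of these fits, and the calls rest on which array is left out.

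Facts of the whole data set bear on these values. The median signal of all probe sets was 19.4, 18.4 and 21.9 on isolated arrays and 18.4, 21.8 and 22.1 on control arrays. The trimmed mean signal was 100, 92.5 and 111 on isolated arrays and 93.0, 94.6 and 108 on control arrays. The part of these differences in the replicate 2 pattern was not tested. Log2 values of arrays correlated at 0.969 to 0.974 within groups and 0.955 to 0.968 between groups (taken over probe sets, which share arrays). The summed signal of 7 measured hepatocyte markers ran from 57467 to 63482 in isolated livers and from 61527 to 65646 in control livers, and 0 of them passed the limma test. The summed signal of 6 measured adipocyte markers ran from 284 to 544 in isolated and from 203 to 295 in control livers, and 0 of the 2 bright enough to be tested passed. Fabp4, a fatty acid carrier of adipocytes and one of those 2, read 203, 300.3 and 404 on isolated arrays and 117, 202 and 157 on control arrays. Its groups were apart and the log2 change was 0.90 (limma adjusted p = 0.0578), a lower p than that of Nags. The other tested probe sets of Fabp4 gave 0.70, with overlapping groups (limma adjusted p = 0.491), and -0.02. Lipe, the other tested marker, had a log2 change of -0.16 (limma adjusted p = 0.891). Cidea, too dim to be tested, read 12.3, 14.6 and 1.76 on isolated arrays and 13.1, 18.3 and 3.58 on control arrays. Retn, another adipocyte hormone, read 2.65, 19.96 and 42.2 on isolated arrays and 2.39, 2.78 and 3.88 on control arrays, and Lep between 0.775 and 3.30 on all 6. Adipoq, an adipocyte hormone, read 3.78, 59.5 and 54.8 on isolated arrays and 4.38, 8.48 and 15.6 on control arrays. The part of the adipocyte markers in the members' values was not tested. Leaving out isolated replicates 2 and 3, where Adipoq and Retn were high, leaves 1 isolated array, which is assumed to vary like the controls and was the highest isolated array for both Nags and Got1. In that fit these genes had log2 changes of 0.94 and 0.96 and limma adjusted p-values of 0.0340 and 0.0257, and 0.446% of all genes passed as higher. Markers of Kupffer cells, endothelium, stellate cells, bile ducts, acinar pancreas and red cells had 0 calls, and no lymphocyte marker was bright enough to be tested. Only 2 bile duct, 1 acinar and 1 red cell marker were tested, so 0 calls say little there. Log2 changes lay above 0 for 2 of 7 tested Kupffer cell markers, 1 of 6 endothelial and 4 of 5 stellate cell markers.

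Around the enzymes, 86 further genes of amino acid metabolism, transport and regulation were listed, 80 had a probe set and 76 were tested. Of these 0 were higher and 4 were lower in isolated livers by the limma test. An unadjusted limma p under 0.05 was found for 6 of the 76, a smaller share than the 12.3% of all tested genes. The 4 are 5.26% of the 76, against 0.847% of all genes called lower. These lists were chosen with earlier results of these data known and were not matched on brightness. The difference between the shares is therefore not a test. They were Cebpb, Ppara, Csad and Slc38a2. The median log2 change over the 76 genes was 0.07, and 51 of them lay above 0.

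Cebpb encodes C/EBP beta, a transcription factor that acts on gluconeogenic and amino acid genes. Its signal was 421, 384 and 679 in isolated livers and 1067, 1037 and 1211 in control livers. The isolated arrays were all below the control arrays, with isolated replicate 3 the nearest. The log2 change was -1.20 (SE 0.19), a level 2.30-fold lower in isolated livers, with a limma adjusted p of 0.00084. A second probe set of Cebpb fell by 0.96 on the log2 scale (limma adjusted p = 0.0413).

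Ppara encodes the nuclear receptor of the fasting response, known in mouse liver to lower the expression of amino acid enzymes. Its brightest probe set read 839, 749 and 1167 in isolated livers and 1411, 1396 and 1768 in control livers. The groups were apart, and on the log2 scale the change was -0.75 (SE 0.17); its limma adjusted p was 0.0220. Of its other tested probe sets, one passed with -0.95 (limma adjusted p = 0.00168) and one did not, with -0.47 (limma adjusted p = 0.247).

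Slc38a2, a sodium-coupled transporter of neutral amino acids, read 1027, 898 and 1437 in isolated livers and 1843, 1709 and 2030.0 in control livers. The groups were apart on this probe set, with a log2 change of -0.76 (SE 0.16) and a limma adjusted p of 0.0163. Its 2 dimmer tested probe sets gave -0.14 and 0.06 and did not pass. With the mean of its probe sets in place of the brightest, Slc38a2 had a log2 change of -0.28 and did not pass (limma adjusted p = 0.647).

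Csad, the decarboxylase that makes hypotaurine for taurine synthesis, read 617, 347 and 868 in isolated livers and 784, 2059 and 1636 in control livers. Control replicate 1 lay between the isolated values, and the control group spread widely, with an SD of 649 around a mean of 1493, against 261 around 611 in isolated livers. Csad changed by -1.27 on the log2 scale (SE 0.29), and its limma adjusted p was 0.0249. This call was lost without isolated replicate 2 (limma adjusted p = 0.0796), control replicate 2 (limma adjusted p = 0.0690) or control replicate 3 (limma adjusted p = 0.162). It was also lost with each array centred on its median (0.0621), quantile normalization (0.0779), a robust trend (0.524) or no filter (0.157), again as limma adjusted p-values, and held in 9 of 18 other settings.

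**Figure D4:**
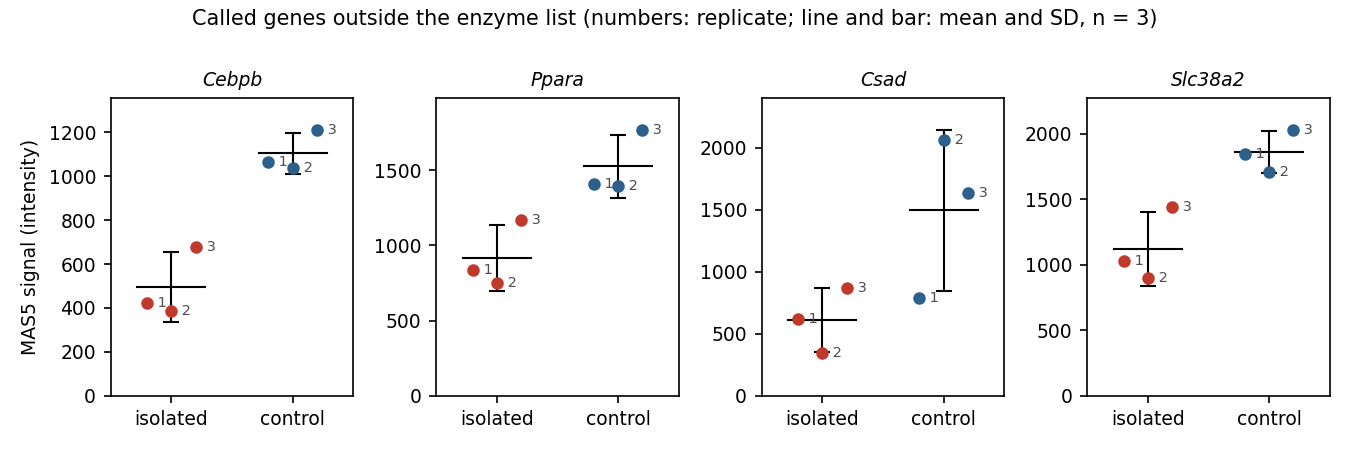
MAS5 signal (linear intensity, vertical axis) on each array of the 4 genes outside the enzyme list that passed the limma test, isolated left of control, with replicate numbers and the mean and SD (n = 3). Isolated arrays are all below control arrays for Cebpb, Ppara and Slc38a2, and for Csad control replicate 1, at 784, lies within the isolated range.

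The count of 4 rested on single arrays, as it was 1 when control replicate 3 was left out and 2 when isolated replicate 2 was. In the fit that lacked control replicate 3, Ppara had a limma adjusted p of 0.126 and Slc38a2 one of 0.0931, and Cebpb was the one that still passed. Ppara also missed the threshold when isolated replicate 1 was left out (limma adjusted p = 0.0593), and when isolated replicate 2 was (limma adjusted p = 0.0659). The count also rested on the variance model, since with limma's intensity trend switched off none of the 4 passed, with adjusted p-values of 0.124 for Cebpb, 0.250 for Slc38a2, 0.264 for Ppara and 0.318 for Csad. With no filter on dim probe sets, Cebpb alone passed, and Slc38a2 and Ppara had limma adjusted p-values of 0.0846 and 0.0931.

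In the other lists of neighbouring genes nothing passed, and the gene of each with the smallest p on its brightest probe set is given. Dimmer probe sets of some other listed genes had smaller p. Among these were Shmt1 of the glycine and serine list and Mccc1 of the branched-chain list. Their dimmer probe sets reached log2 changes of 0.50 and 0.52 (limma adjusted p = 0.157 and 0.234), against 0.09 and 0.16 on the brightest. Glul, the glutamine synthetase that takes up ammonia left by the urea cycle, read 2016, 1624 and 1904 in isolated livers and 1636, 1155 and 1676 in control livers. Its groups overlapped, with a log2 change of 0.32 (SE 0.16, limma adjusted p = 0.439). Gldc, of the glycine cleavage system, had a log2 change of 0.33 (limma adjusted p = 0.532), and Bckdk, the kinase that inhibits the branched-chain dehydrogenase, one of 0.42 (limma adjusted p = 0.531). Pcbd1, which recycles the cofactor of phenylalanine hydroxylase, had 0.15, Hoga1, the last enzyme of hydroxyproline breakdown, 0.14, and Kyat1, a kynurenine aminotransferase, -0.15. The dimmer tested probe sets of Kyat1 had the opposite sign, at 0.19, 0.31 and 0.59, and none of them passed.

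Among regulators that did not pass, Cebpa, the C/EBP factor of the resting hepatocyte, had a log2 change of 0.07, and Klf15, a factor that drives amino acid breakdown in fasting, one of 0.10. Nr3c1, the glucocorticoid receptor, had 0.03 and Gcgr, the glucagon receptor, 0.00. The 95% intervals of the ratio were 0.833 to 1.32 for Cebpa, 0.795 to 1.44 for Klf15, 0.809 to 1.28 for Nr3c1 and 0.789 to 1.27 for Gcgr.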

How the data were processed

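Liver RNA of 3 isolated and 3 control samples was measured on 1 Affymetrix array each. The deposited intensity values came from MAS5, per the submitters' processing notes. No source used here gives the scaling target or detection calls. The 64 control probe sets were left out, 2 was added to each signal, log2 was taken, and the 50% of probe sets with the highest mean were tested (the dimmest had a mean log2 value of 4.32), with no further scaling. Limma 3.58.1 in R 4.3.3 fitted 2 groups, eBayes used an intensity trend, and p-values were two-sided and Benjamini-Hochberg adjusted. The trend counted as 16.1 degrees of freedom beside 4 from the arrays. The procedure was tested on simulated data. The simulated noise was independent between arrays, and its spread followed the intensity trend alone. It therefore cannot show how the fit behaves with the replicate 2 pattern or with spread that departs from the trend. Signal at 2 or below is compressed, so log2 changes of dim probe sets are understated, and the number of arrays limits the precision.

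The members and lists were chosen with earlier results of these data known. Each member is named. Values on every array were to be given for members that passed, or with a log2 change of at least 0.5 and groups apart (Nags and Hal), and those of other members were picked after their values were seen. Of the further genes, each that passed was named, or else the one of its list with the smallest p on its brightest probe set. Other regulators and dimmer probe sets were picked after their values were seen. Gene names came from the platform annotation. Alternatives covered the pseudocount, filter, scaling, variance model, array weights, replicate block, probe set per gene, threshold and each array left out. Figures were drawn with matplotlib 3.10.9.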

Additional observations from a re-analysis of the deposited data

How the results depend on the processing

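Over 18 other settings for each gene, 32 of the 38 members never passed the limma test, and 0 were lower in any setting. Members higher in isolated livers, 0 as reported, numbered 1 with a pseudocount of 16, 1 with each array centred on its median and 3 with quantile normalization. They numbered 1 with a robust trend, 3 with array weights, 2 at an adjusted p under 0.10, and 0 to 3 with 1 array left out. Of all 22519 tested probe sets, 174 were higher as reported. This total was 201 with the pseudocount of 16, 164 with centring and 148 with quantile normalization. It was 205 with the robust trend, 258 with array weights and 303 at an adjusted p under 0.10. Nags passed in 8 of the 18 settings and Got1 in 4, in each case counting the fit with 1 isolated array. Hal passed in 3, Bhmt in 2, and Tat and Hgd in 1 each. In 15 members the estimate changed sign under some setting, in 44 of 684 pairs of gene and setting, and all 15 had a reported log2 change within 0.1 of 0. The median over the members was 0.08 with centring and 0.13 with quantile normalization, with 27 and 31 of 38 above 0. Over all tested probe sets the median was -0.009 with centring and 0.008 with quantile normalization.

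With the replicate number as a block, 3 members passed as higher (Nags with an adjusted p of 0.0293, Hal with 0.0241 and Got1 with 0.0135), Csad no longer passed as lower (adjusted p of 0.0594), and 265 of all probe sets were higher. The deviations of same-numbered arrays correlated at 0.008, 0.044 and 0.005, so the number is not taken as a pairing.

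Further genes of amino acid metabolism that were lower, 4 as reported, numbered 1 without a filter, 0 without the intensity trend in limma, 1 at an adjusted p under 0.01, and 1 to 4 with 1 array left out. Over all probe sets, 174 were higher and 193 lower as reported. Without a filter these were 81 and 101, without a trend 15 and 16, and at an adjusted p under 0.01 they were 64 and 98. At an adjusted p under 0.10, 303 were higher, and without isolated replicates 2 and 3 together 88 were. With 1 array left out, 97 to 187 were higher and 82 to 243 lower. Where limma had fewer arrays or more probe sets, the setting's own construction changes the count, and the cause of the other changes was not tested. Precision is limited by the few arrays, and 8 of the 38 members had a 95% interval that reached past 1.5-fold.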

Other observations

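Among the regulators of amino acid breakdown, Ppargc1a, the coactivator of the fasting programme, was read by 5 tested probe sets, and all had a log2 change below 0, at -0.50, -0.41, -0.67, -0.68 and -0.28. Its brightest probe set read 49.8, 51.3 and 43.4 in isolated livers and 69.0, 76.2 and 62.0 in control livers. The groups were apart on it, and none of the 5 passed the limma test, the brightest with an adjusted p of 0.375. Foxo1, a factor restrained by insulin, was read by 3 tested probe sets with log2 changes of -0.23, -0.58 and -0.53, none of which passed. Both genes were picked after their values were seen.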
